A study of Mus musculus with 2 samples.

Results

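Rib chondrocytes and dermal fibroblasts were compared for 10 genes by which the fibroblasts of mouse skin are sorted or staged. The genes were *Pdgfra*, *Pdgfrb*, *Dpp4*, *Ly6a*, *Cd34*, *Lrig1*, *Pi16*, *Thy1*, *Lef1* and *Alx4*. They were chosen by name, as the rows of the count table that carry these symbols, and all 10 were found once among 24421 rows. Of the 10, 8 encode proteins of the cell surface, whereas 2 (*Lef1* and *Alx4*) encode transcription factors, so that only the former are surface markers. Each of the 10 had at least 10 counts in 1 library or both, as did 14291 rows in all.

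The data are mRNA-Seq counts of 2 libraries, 1 made from chondrocytes of newborn mouse rib cartilage and 1 from dermal fibroblasts of newborn mouse back skin, both used as primary cells. Chondrocytes were released with collagenase after a first digestion that removed soft tissue, and were used within 2 passages. Fibroblasts were dispersed by pipetting from back skin digested with collagenase, and the study's methods word this step as following removal of the dermis. Neither the labels nor the study's methods give a genotype, an agent or a marker-based sort for these cells, and how many animals were pooled is not stated. The study used the comparison to find genes with higher expression in chondrocytes, and the fibroblasts were its control cells.

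Fibroblasts of mouse skin arise from lineages that occupy different depths. The papillary dermis under the epidermis is known for *Dpp4*, *Lrig1* and *Lef1*, and the deeper reticular dermis and hypodermis, which holds adipocyte precursors, for *Ly6a*. *Pdgfra*, *Pdgfrb* and *Thy1* are used as general markers of mesenchymal cells, and *Cd34* and *Pi16* mark fibroblasts of connective tissue around vessels and in fascia. Chondrocytes make a matrix of type II collagen and aggrecan and are identified by these products rather than by the markers above.

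In dermal fibroblasts, all 10 genes had more counts, and each was over 2-fold higher there, against 16.2% of the 14291 genes tested. None was over 2-fold higher in chondrocytes, against 11.8% of the genes tested. The median fold of the 10 genes was 6.25 (log2 2.64) and the median log2 fold of all genes tested was 0.00348. The folds ran from 2.44 for *Lef1* to 20.1 for *Thy1*. For 9 of the 10, the whole 95% counting interval lay over 2-fold, which held for 10.8% of the genes tested, and *Lef1* was the exception. As each cell type had 1 library, no p-value was computed and no value has a replicate check. The intervals cover error from counting alone, and the reads carry no molecular identifiers, so that copies of a molecule are counted apart.

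The libraries summed to 18788599 counts in chondrocytes against 17563724 in dermal fibroblasts, and levels are given as CPM, a count scaled to 1e+06 of the effective library size, which edgeR derives from the total by the trimmed mean of M-values. Markers of either cell type went with the labels. All 13 chondrocyte markers in the table were over 2-fold higher in chondrocytes, with *Col2a1* at 1447098 counts against 0 and *Acan* at 148105 against 35. Of 14 dermal fibroblast markers, *Pdgfra* included, 12 were over 2-fold higher in dermal fibroblasts, among them *Col1a1* (39143 and 322379 counts in chondrocytes and dermal fibroblasts), *Col3a1* (32090 and 273385) and *Dpt* (278 and 5155). *Lum* (3191 and 2881 counts, named after its values were seen) and *Cyp1b1* (6755 and 3783) were not.

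**Figure D1:**
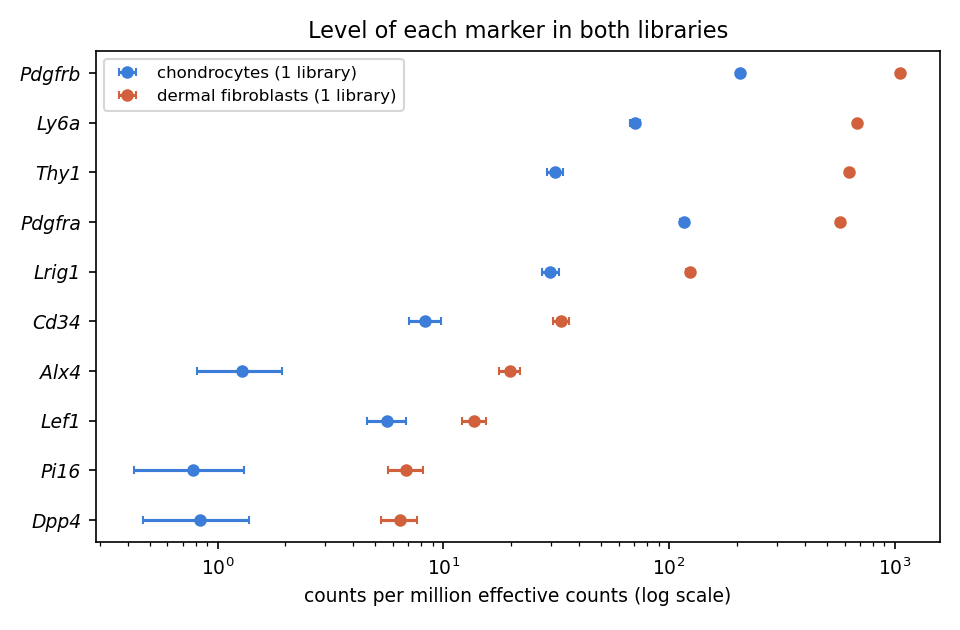
Level of each of the 10 genes in the chondrocyte library (blue) and the dermal fibroblast library (orange), in CPM on a log axis. Bars are 95% Clopper-Pearson counting intervals, and for each gene the dermal fibroblast point lies to the right of the chondrocyte point with no overlap of the bars. Bars narrow as counts rise, so those of abundant genes can separate at small folds too. How many of all genes tested have separate bars is not given here.

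The promoters of the genes were looked up because all 10 genes differed in the same direction. RefSeq promoters of GRCm38.p6, which reach from 250 bases before to 50 bases after a start site, were matched by symbol for 6 of the 10 genes. The 4 shown are those of 3 genes with few CG dinucleotides and of *Lrig1*, which has many. They are written 5′ to 3′ on the strand of the gene, with motif matches in capitals.
Pdgfra (chr5:75152001-75152300, plus strand): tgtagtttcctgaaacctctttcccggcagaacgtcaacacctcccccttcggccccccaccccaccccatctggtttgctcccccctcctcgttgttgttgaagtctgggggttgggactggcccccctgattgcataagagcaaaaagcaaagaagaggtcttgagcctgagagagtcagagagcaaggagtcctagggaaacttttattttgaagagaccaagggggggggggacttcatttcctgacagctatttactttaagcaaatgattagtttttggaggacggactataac
Dpp4 (chr2:62412182-62412481, minus strand): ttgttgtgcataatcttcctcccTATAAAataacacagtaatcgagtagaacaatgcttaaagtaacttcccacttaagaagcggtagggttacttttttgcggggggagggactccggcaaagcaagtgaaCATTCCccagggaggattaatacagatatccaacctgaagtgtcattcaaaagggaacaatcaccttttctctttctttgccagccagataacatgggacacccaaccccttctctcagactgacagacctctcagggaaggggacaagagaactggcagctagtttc
Pi16 (chr17:29318632-29318931, plus strand): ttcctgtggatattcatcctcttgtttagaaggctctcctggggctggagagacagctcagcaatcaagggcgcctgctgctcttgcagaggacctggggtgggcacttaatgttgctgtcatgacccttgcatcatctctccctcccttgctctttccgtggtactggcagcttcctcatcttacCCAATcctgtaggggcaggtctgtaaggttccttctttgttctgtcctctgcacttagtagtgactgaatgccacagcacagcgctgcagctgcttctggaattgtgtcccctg
Lrig1 (chr6:94700096-94700395, minus strand): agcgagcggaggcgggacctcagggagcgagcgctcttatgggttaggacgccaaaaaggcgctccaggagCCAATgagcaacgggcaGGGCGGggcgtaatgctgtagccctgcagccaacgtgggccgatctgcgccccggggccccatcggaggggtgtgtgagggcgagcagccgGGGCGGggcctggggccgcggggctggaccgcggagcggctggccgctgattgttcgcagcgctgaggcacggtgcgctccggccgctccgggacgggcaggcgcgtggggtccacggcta

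The *Lrig1* promoter had 35 CG dinucleotides and a GC content of 73.0%, and those of *Pdgfra*, *Dpp4* and *Pi16* had 5, 4 and 3 CG dinucleotides and GC contents of 51.0%, 45.3% and 53.3%. Over all 32851 promoters, the median was 7 CG dinucleotides and 52.7% GC. As the 4 are described by their CG content, their unlike composition is no result about genes higher in dermal fibroblasts. Among the promoters not shown, that of *Cd34* had 7 CG dinucleotides and those of *Lef1* had from 5 to 21. Promoters of genes without a difference between the libraries were not compared. On both strands, the letters searched were CTTTGA for LEF and TCF factors, GGGCGG for Sp and KLF factors, CCAAT for the CCAAT box, TATAAA for the TATA box, TGANTCA for AP-1 and CATTCC for TEAD factors, and no matches in the 4 promoters overlapped. The *Dpp4* promoter held TATAAA at 1 place, as 13.6% of all promoters do at 1 or more, and CATTCC at 1 place, as 14.7% do. *Pi16* and *Lrig1* held CCAAT, as 37.4% of promoters do, and *Lrig1* held GGGCGG at 2 places, as 35.7% do at 1 or more. *Pdgfra* held none of these letters. Of the 5 promoters not shown, that of *Cd34* held none either, 3 of the 4 of *Lef1* held GGGCGG at 1 place, and the other of *Lef1* held CTTTGA (16.0% of all promoters) at 2 places and TATAAA at 1. TGANTCA (7.81% of all promoters) was in none of the 9. A match describes the letters of the window and not a bound site.

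The platelet-derived growth factor (PDGF) receptors are receptor tyrosine kinases that drive the growth and migration of mesenchymal cells. *Pdgfra* (chromosome 5, 75151322 to 75198206, in RefSeq GRCm38.p6, as for all genes here) had 2096 counts in chondrocytes against 10527 in dermal fibroblasts. These were 117 CPM (interval 112 to 122) and 572 CPM (561 to 583), a 4.89-fold difference (interval 4.67 to 5.13). *Pdgfrb* (chromosome 18, 61045127 to 61085067) had 3719 and 19453 counts. Its levels were 207 CPM (201 to 214) and 1057 CPM (1042 to 1072), and it was 5.09-fold higher in dermal fibroblasts (4.92 to 5.28). For both receptors the intervals of the libraries lay far apart, and chondrocytes had reads of both as well. The fold of *Pdgfrb* was 1.04 times that of *Pdgfra*, with a counting interval of this ratio from 0.982 to 1.10. Per kilobase of exon, *Pdgfrb* was 2.18 times as high as *Pdgfra* in chondrocytes and 2.27 times in dermal fibroblasts, so that the balance of the receptors was close in both cell types.

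Pericytes also carry *Pdgfrb*. Of 9 pericyte and mural cell genes tested, 5 were over 2-fold higher in dermal fibroblasts and 2 in chondrocytes, against 16.2% and 11.8% of all genes tested. *Cspg4*, the proteoglycan NG2, had 10824 counts in chondrocytes against 2976 in dermal fibroblasts, and *Acta2*, smooth muscle actin, had 9075 and 25773. The summed level of the 10 listed genes was 1443 CPM in chondrocytes and 1807 CPM in dermal fibroblasts, and their part in the *Pdgfrb* difference was not tested. Throughout, a lower share of cells with a transcript and less of it in each cell cannot be told apart in these bulk libraries.

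Of the 4 PDGF ligands, 1 was over 2-fold higher in dermal fibroblasts, or 2 with total counts, which put the log2 fold of *Pdgfb* at 1.003. *Pdgfd*, a ligand of the beta receptor, had 27 counts in chondrocytes against 231 in dermal fibroblasts and was 8.33-fold higher (5.58 to 12.9). *Pdgfb* was 1.82-fold higher (1.33 to 2.52, 63 and 118 counts), *Pdgfc* was within counting error at 1.10-fold (0.948 to 1.28, 339 and 383 counts), and *Pdgfa* was at 0.736-fold (0.610 to 0.886, 270 and 204 counts). Per kilobase of exon, the ligands lay between 0.483 CPM (*Pdgfd* in chondrocytes) and 4.83 CPM (*Pdgfa* in chondrocytes), under both receptors in either library. Of the 30 genes listed for PDGF receptor signaling, 5 were over 2-fold higher in dermal fibroblasts, 1 in chondrocytes and 24 within 2-fold. The share of 5 in 30 is close to the 16.2% of all genes tested. The 5 were both receptors, *Pdgfd*, the endocytic receptor *Lrp1* (2.09-fold, 2.05 to 2.13) and *Plat* (8.10-fold, 6.94 to 9.50, named after its values were seen), the plasminogen activator that processes PDGF-C. *Ptpn2*, a phosphatase that acts on the receptors, was higher in chondrocytes (916 and 446 counts). The median log2 fold of the 28 genes other than the receptors was 0.20. Among the other receptor kinases of the same class, *Csf1r* (160 and 430 counts) was 2.62-fold and *Kit* (6 and 51 counts) 8.28-fold higher in dermal fibroblasts, and *Flt3* had no count in either library.

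Of the proteins anchored to the surface by a glycolipid, *Thy1* and *Ly6a* had the higher levels per length of the 10 genes in dermal fibroblasts. *Thy1* (chromosome 9, 44043384 to 44048579), which encodes CD90, had 562 counts in chondrocytes against 11579 in dermal fibroblasts. These were 31.4 CPM (28.8 to 34.1) and 629 CPM (618 to 641). Its 20.1-fold difference (18.4 to 21.9) was the largest of the 10 genes, and 115 of the 14291 genes tested had a larger fold toward dermal fibroblasts. *Ly6a* (chromosome 15, 74994877 to 74998031), which encodes Sca-1, had 1268 and 12498 counts, which is 70.7 CPM (66.9 to 74.7) and 679 CPM (667 to 691), and it was 9.60-fold higher in dermal fibroblasts (9.06 to 10.2). The fold of *Thy1* was 2.09 times that of *Ly6a* (1.89 to 2.32), a difference that does not depend on how the libraries are scaled.

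*Ly6a* belongs to a cluster of related genes. Of the 9 other genes of the LY6 list with enough counts, 6 were over 2-fold higher in dermal fibroblasts, against 16.2% of all genes tested. *Ly6d*, *Ly6c2*, *Ly6g6c* and *Ly6h* reached 10 counts in dermal fibroblasts only. Having under 3 counts in chondrocytes, they had to pass 2-fold with a floor of 3 counts. The share is therefore no result about the family. *Ly6c1* had 70 counts in chondrocytes against 2010 in dermal fibroblasts and was 28.0-fold higher (22.0 to 36.0). Counted against a floor of 3 counts in a library, *Ly6c2* (0 and 52 counts) was 16.9-fold and *Ly6d* (0 and 71 counts) 23.0-fold higher. By the same floor, *Ly6g6c* (0 and 23 counts) was 7.46-fold higher. Such folds depend on the floor, and the counting interval of each gene reached below the fold given. *Ly6e*, which is expressed by many cell types, was 3.84-fold higher (3.62 to 4.09), and *Ly6h* had 2 and 18 counts. *Lynx1* (1.99-fold), *Cd59a* (1.20-fold) and *Plaur* (0.588-fold) were within 2-fold. *Ly6c1* and *Ly6c2* are near copies of each other, and how the counting treated reads that fit both is not stated, so their values are uncertain. For *Ly6a*, 6 of the 745 windows of 75 bases in its GENCODE vM1 transcript were found without mismatch in another gene's protein-coding transcripts (*Ly6i*, 2 and 5 counts). Windows of *Ly6c1* and *Ly6c2* were not counted, and matches with mismatches were not searched.

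T cells also carry *Thy1* and *Ly6a*, and endothelium also carries *Ly6a* and *Cd34*. The T cell genes *Cd3d*, *Cd3e*, *Cd3g* and *Cd8a* had 0 counts in both libraries (all named after their values were seen). *Cd4*, which T cells also carry, was 4.09-fold higher in dermal fibroblasts (5 and 21 counts). Its counting interval reached below 2-fold. Of the 10 leukocyte genes that were tested, 3 were over 2-fold higher in dermal fibroblasts, *Cd4* among them, against 16.2% of all genes tested. The summed level of the leukocyte list was 118 CPM in chondrocytes and 187 CPM in dermal fibroblasts. The endothelial list had 12 tested genes. Of these, 9 were over 2-fold higher in dermal fibroblasts and 1 (*Erg*) in chondrocytes, against 16.2% and 11.8% of all genes tested. *Cdh5*, the cadherin of endothelial junctions, had 68 and 198 counts, *Kdr* had 70 and 276, and *Vwf* had 18 and 157. The endothelial list summed to 35.4 CPM in chondrocytes and 81.9 CPM in dermal fibroblasts; their part in the *Thy1* and *Ly6a* differences was not tested.

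*Cd34* (chromosome 1, 194938821 to 194961292) encodes a sialomucin of progenitors, endothelium and connective tissue fibroblasts. It had 149 counts in chondrocytes against 612 in dermal fibroblasts, which is 8.31 CPM (7.03 to 9.76) and 33.2 CPM (30.7 to 36.0), and it was 3.999-fold higher in dermal fibroblasts (3.34 to 4.82). Per kilobase of exon it was at 12.7 CPM in dermal fibroblasts, where *Plvap* was the highest of the endothelial list at 6.66 CPM and *Cdh5* was at 2.70 CPM, and the part of endothelial cells in its difference was not tested. Its relative *Podxl* went the other way, with 150 counts in chondrocytes against 32 in dermal fibroblasts (0.208-fold, 0.137 to 0.306), and *Podxl2* was within 2-fold (1.69-fold, 75 and 130 counts). The fold of *Cd34* was 19.3 times that of *Podxl* (12.6 to 29.3).

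*Lrig1* (chromosome 6, 94604529 to 94700298) encodes a leucine-rich repeat protein that restrains the ERBB receptors and marks upper dermis and epidermal stem cells. It had 534 counts in chondrocytes against 2282 in dermal fibroblasts, which is 29.8 CPM (27.3 to 32.4) and 124 CPM (119 to 129), and it was 4.16-fold higher in dermal fibroblasts (3.78 to 4.58). Its paralogs did not share the difference. *Lrig2* (494 and 418 counts) was at 0.824-fold and *Lrig3* (1265 and 1054 counts) at 0.811-fold, and the fold of *Lrig1* was 5.05 times that of *Lrig2* (4.30 to 5.93) and 5.13 times that of *Lrig3* (4.53 to 5.81). Per kilobase of exon, *Lrig3* (17.4 CPM) lay above *Lrig1* (5.33 CPM) in chondrocytes and below it in dermal fibroblasts (14.1 and 22.2 CPM). Of the receptors that LRIG proteins act on, *Egfr* was 1.53-fold higher (918 and 1440 counts), *Erbb2* was at 0.879-fold, *Erbb3* was 2.23-fold higher (1.89 to 2.65, 197 and 452 counts) and *Met* was at 0.377-fold (0.328 to 0.433, 748 and 290 counts). The exons of *Lrig1* overlap those of *Slc25a26* on the opposite strand, which had 79 and 92 counts, and 46 of its 5046 windows of 75 bases occur there too. The exons of *Cd34* also overlap those of *Gm16897* (0 and 8 counts) on the opposite strand. Those of *Dpp4* overlap the exons of *Gm13561* on the opposite strand, which has no row in the count table. The strand setting of the counting is not stated.

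Epidermal and follicle cells also express *Lrig1* and *Lef1*, and their genes moved with the dermal fibroblast library. Of 11 keratinocyte and hair follicle genes tested, 9 were over 2-fold higher there and none in chondrocytes, against 16.2% and 11.8% of all genes tested. The list summed to 16.5 CPM in chondrocytes and 398 CPM in dermal fibroblasts. *Krt14*, a keratin of basal keratinocytes, had 17 and 1939 counts, and *Krt5*, its partner, had 1 and 1693. *Krt17* had 7 and 1024 counts and *Krt6a* had 0 and 1189. The part of these cells in the *Lrig1* and *Lef1* differences was not tested.

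*Dpp4* and *Pi16* were the genes with the fewest reads in chondrocytes. *Dpp4* (chromosome 2, 62330073 to 62412315) encodes CD26, a dipeptidyl peptidase of the cell surface. It had 15 counts in chondrocytes against 118 in dermal fibroblasts, which is 0.837 CPM (0.468 to 1.38) and 6.41 CPM (5.31 to 7.68), and it was 7.66-fold higher in dermal fibroblasts (4.46 to 14.1). *Pi16* (chromosome 17, 29318796 to 29328903) encodes a peptidase inhibitor of the CAP family. It had 14 and 126 counts, which is 0.781 CPM (0.427 to 1.31) and 6.84 CPM (5.70 to 8.15), and it was 8.76-fold higher (5.03 to 16.5). The counting intervals of the chondrocyte and the dermal fibroblast library did not overlap for either gene, though both genes had few reads in the dermal fibroblast library too.

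Among the relatives of *Dpp4*, the lysosomal peptidase *Dpp7* was 11.4-fold higher in dermal fibroblasts (9.78 to 13.4, 174 and 2041 counts). *Fap*, the closest relative and a marker of activated fibroblasts, was at 1.20-fold with an interval that includes equality (0.979 to 1.47, 177 and 218 counts). The cytosolic enzymes *Dpp8* (1.10-fold), *Dpp9* (1.15-fold) and *Prep* (0.767-fold) were within 2-fold. The fold of *Dpp4* was 6.39 times that of *Fap* (3.60 to 11.3), and its ratio to that of *Dpp7* was 0.671, with an interval from 0.383 to 1.17. Among the relatives of *Pi16*, *Crispld2* was 5.33-fold higher in dermal fibroblasts (4.19 to 6.85, 80 and 438 counts), whereas *Crispld1* (1432 and 34 counts) and *R3hdml* (36 and 7 counts) were at 0.0231-fold (0.0159 to 0.0325) and 0.189-fold (0.0711 to 0.431). *Pi15* (0.772-fold), *Glipr1* (1.02-fold) and *Glipr2* (1.37-fold) were within 2-fold. The CAP family was therefore split between the cell types.

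*Lef1* (chromosome 3, 131110297 to 131224357) encodes a transcription factor that acts with beta-catenin in WNT signaling. It had 101 counts in chondrocytes against 253 in dermal fibroblasts, which is 5.63 CPM (4.59 to 6.85) and 13.7 CPM (12.1 to 15.5). Its 2.44-fold difference was the smallest of the 10 genes, and its interval (1.93 to 3.10) reached below 2-fold. Of the other factors of this family, *Tcf7* was 1.71-fold higher (161 and 282 counts), *Tcf7l2* was at 0.914-fold and *Tcf7l1* was at 0.761-fold. The fold of *Lef1* was 1.43 times that of *Tcf7* (1.06 to 1.93) and 3.21 times that of *Tcf7l1* (2.50 to 4.10). Per kilobase of exon, *Tcf7l1* (19.2 and 14.6 CPM) lay above *Lef1* (0.651 and 1.59 CPM) in both libraries.

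Genes known to respond to beta-catenin with these factors did not move together. Of 12 tested, 5 were over 2-fold higher in dermal fibroblasts, 1 in chondrocytes and 6 within 2-fold. Among all genes tested, 16.2% were higher in dermal fibroblasts and 11.8% in chondrocytes by this threshold. *Lgr5*, an R-spondin receptor, had 9 counts in chondrocytes against 2831 in dermal fibroblasts and was 306-fold higher (161 to 670), and *Apcdd1*, a WNT inhibitor, was 2.76-fold higher (2.46 to 3.10). *Notum*, which inactivates WNT ligands, was at 0.325-fold (0.215 to 0.480). *Ccnd1* and *Myc* were at 0.900-fold and 0.542-fold, and the median log2 fold of the list was 0.06.

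*Alx4* (chromosome 2, 93642434 to 93681341) encodes a homeodomain factor of craniofacial, limb and dermal mesenchyme. It had 23 counts in chondrocytes against 363 in dermal fibroblasts, which is 1.28 CPM (0.813 to 1.93) and 19.7 CPM (17.7 to 21.9), and it was 15.4-fold higher in dermal fibroblasts (10.1 to 24.6). Its relative *Alx1*, in contrast, had 1424 counts in chondrocytes against 2 in dermal fibroblasts, and was at 0.00205-fold, computed with the floor of 3 counts, with an interval from 0.000165 to 0.00495. *Alx4* and *Alx1* thus both differed over 2-fold, in opposite directions.

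**Figure D2:**
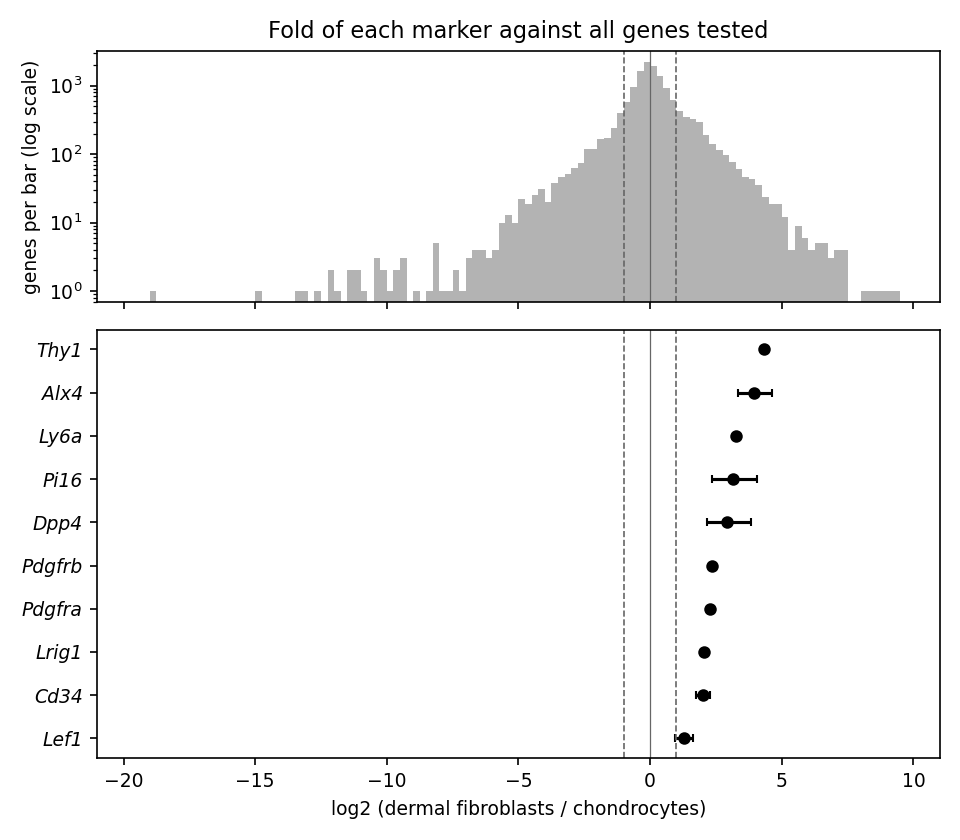
Top, log2 fold (dermal fibroblasts over chondrocytes) of the 14291 genes tested, with the number of genes per bar on a log axis; bottom, log2 fold of each of the 10 genes with its 95% counting interval. Dashed lines mark 2-fold in either direction, and each of the 10 points lies to the right of the right-hand line, with *Lef1* nearest to it and *Thy1* farthest.

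The folds of the 10 genes lay high in the order of all genes tested but were not its extreme. *Thy1* exceeded 99.2% of the genes tested, *Alx4* 98.8%, *Ly6a* 97.9%, *Pi16* 97.6% and *Dpp4* 97.2%. *Pdgfrb* (95.3%), then *Pdgfra*, *Lrig1* (93.7%), *Cd34* (93.5%) and *Lef1* (87.2%) followed. With the reported scaling, *Thy1* and *Alx4* were the 2 genes over 10-fold, at 11579 and 363 counts in dermal fibroblasts. The ratio of their folds was 1.31 with an interval from 0.849 to 2.01. Scaling by total counts put *Ly6a* over 10-fold as well (10.5-fold).

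Levels of different genes were compared per kilobase of exon (GENCODE vM1). In dermal fibroblasts, *Ly6a* was highest at 829 CPM per kilobase, followed by *Thy1* (363), *Pdgfrb* (193), *Pdgfra* (84.9), *Lrig1* (22.2), *Cd34* (12.7), *Alx4* (2.79), *Pi16* (1.72), *Lef1* (1.59) and *Dpp4* (1.01). Neighbors in this order differed beyond their counting intervals, with the exception of *Pi16* and *Lef1*. In chondrocytes, *Ly6a* (86.4) again led, ahead of *Pdgfrb* (37.9), *Thy1* (18.1), *Pdgfra* (17.4), *Lrig1* (5.33), *Cd34* (3.17), *Lef1* (0.651), *Pi16* (0.196), *Alx4* (0.182) and *Dpp4* (0.132). There, the intervals of *Thy1* and *Pdgfra* overlapped, as did those of *Pi16* and *Alx4* and of *Alx4* and *Dpp4*. *Thy1* therefore lay under *Pdgfrb* in chondrocytes and over it in dermal fibroblasts, and *Lef1* lay over *Alx4* in chondrocytes and under it in dermal fibroblasts. The 10 genes summed to 473 CPM in chondrocytes and 3140 CPM in dermal fibroblasts, and *Pdgfra*, *Pdgfrb*, *Ly6a* and *Thy1* made up 90.1% and 93.5% of their counts.

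The 9 family lists held 40 tested genes other than the 10, of which 13 (32.5%, against 16.2% of all genes tested) were over 2-fold higher in dermal fibroblasts, 5 in chondrocytes and 22 within 2-fold, with a median log2 fold of 0.36. Those 13 included 6 of the LY6 list. Of the 13, *Ly6d*, *Ly6c2*, *Ly6g6c*, *Ly6h*, *Kit* and *Dpp6* were tested only through their counts in dermal fibroblasts. All of these but *Kit* and *Dpp6* had to pass 2-fold with the floor of 3 counts. The share of 32.5% is therefore no result about the families.

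The 10 genes were then set beside other genes of the dermal compartments they are used to mark. Among 12 papillary dermis genes outside the 10, 9 were over 2-fold higher in dermal fibroblasts and 1 in chondrocytes, with a median log2 fold of 1.68. *Crabp1*, a retinoic acid binding protein, had 11 and 1786 counts and was 158-fold higher (88.1 to 317). *Pdpn*, podoplanin, was 14.7-fold higher (12.6 to 17.2) and the guidance protein *Ntn1* 9.24-fold higher (8.24 to 10.4), whereas *Trps1*, a factor that also acts in the growth plate, was at 0.430-fold (0.391 to 0.472). *Ncam1* (2666 and 2323 counts) was within 2-fold.

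Of 13 adventitial fibroblast genes outside the 10, 8 were over 2-fold higher in dermal fibroblasts and 2 in chondrocytes, with a median log2 fold of 1.68. *Dpt*, dermatopontin, was 18.1-fold higher (16.0 to 20.4) and *Cd248*, endosialin, 3.21-fold higher (3.05 to 3.38). *Pcolce2*, an enhancer of procollagen processing, was at 0.0310-fold (3142 and 100 counts), and *Anxa3* (2629 and 2271 counts) was within 2-fold. These shares, like those of the lists that follow, stand beside 16.2% of all genes tested higher in dermal fibroblasts and 11.8% in chondrocytes, and the lists were not tested against each other.

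Of 14 reticular dermis and hypodermis genes other than *Ly6a*, 6 were over 2-fold higher in dermal fibroblasts and 4 in chondrocytes, with a median log2 fold of 0.55. The 6 were *Dkk2* (9.48-fold, 30 and 292 counts), *Plac8* (5.70-fold), *Gpx3* (3.72-fold), *Cdh4* (3.45-fold), *Mfap5* (3.44-fold) and *Fabp4* (2.74-fold). They are named here after their values were seen. *Dlk1*, a marker of the lower dermal lineage in newborn skin, had 22110 counts in chondrocytes against 5106 in dermal fibroblasts (0.225-fold, 0.218 to 0.232), and *Mgp*, an inhibitor of calcification that cartilage also makes, had 18280 and 18. *Thbs1* (80164 and 58838 counts) was within 2-fold. Of 16 dermal papilla genes other than *Lef1* and *Alx4*, 4 were over 2-fold higher in dermal fibroblasts and 7 in chondrocytes, with a median log2 fold of -0.24. *Alpl* (734 and 173 counts), *Enpp2* (4193 and 1875 counts) and *Trps1* (1429 and 631 counts) were higher in chondrocytes. *Crabp1* (11 and 1786 counts), which is in this list as well as the papillary list, was 158-fold higher in dermal fibroblasts. The log2 folds of *Ly6a* (3.26), *Alx4* (3.94) and *Lef1* (1.29) lay above the medians of these lists.

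Adipocyte precursors share *Pdgfra* and *Ly6a*, and the dermal fibroblast library was over 2-fold higher for 5 of 7 adipocyte genes tested. *Adipoq*, the adipocyte hormone adiponectin, had 136 and 1397 counts, *Lpl*, lipoprotein lipase, had 5900 and 56245, and *Fabp4* had 1251 and 3525, while *Plin1* (607 and 562) was within 2-fold. The list summed to 466 CPM in chondrocytes and 3399 CPM in dermal fibroblasts, and its part in the *Ly6a* and *Pdgfra* differences was not tested. The Schwann cell list had 5 of 7 tested genes over 2-fold higher in dermal fibroblasts, with *Sox10* at 25 and 310 counts, and *S100b*, which chondrocytes also express, was higher in chondrocytes (2657 and 87 counts). Skeletal muscle genes did not move with the 10 genes, as 8 of 13 were over 2-fold higher in chondrocytes and 5 within 2-fold.

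**Figure D3:**
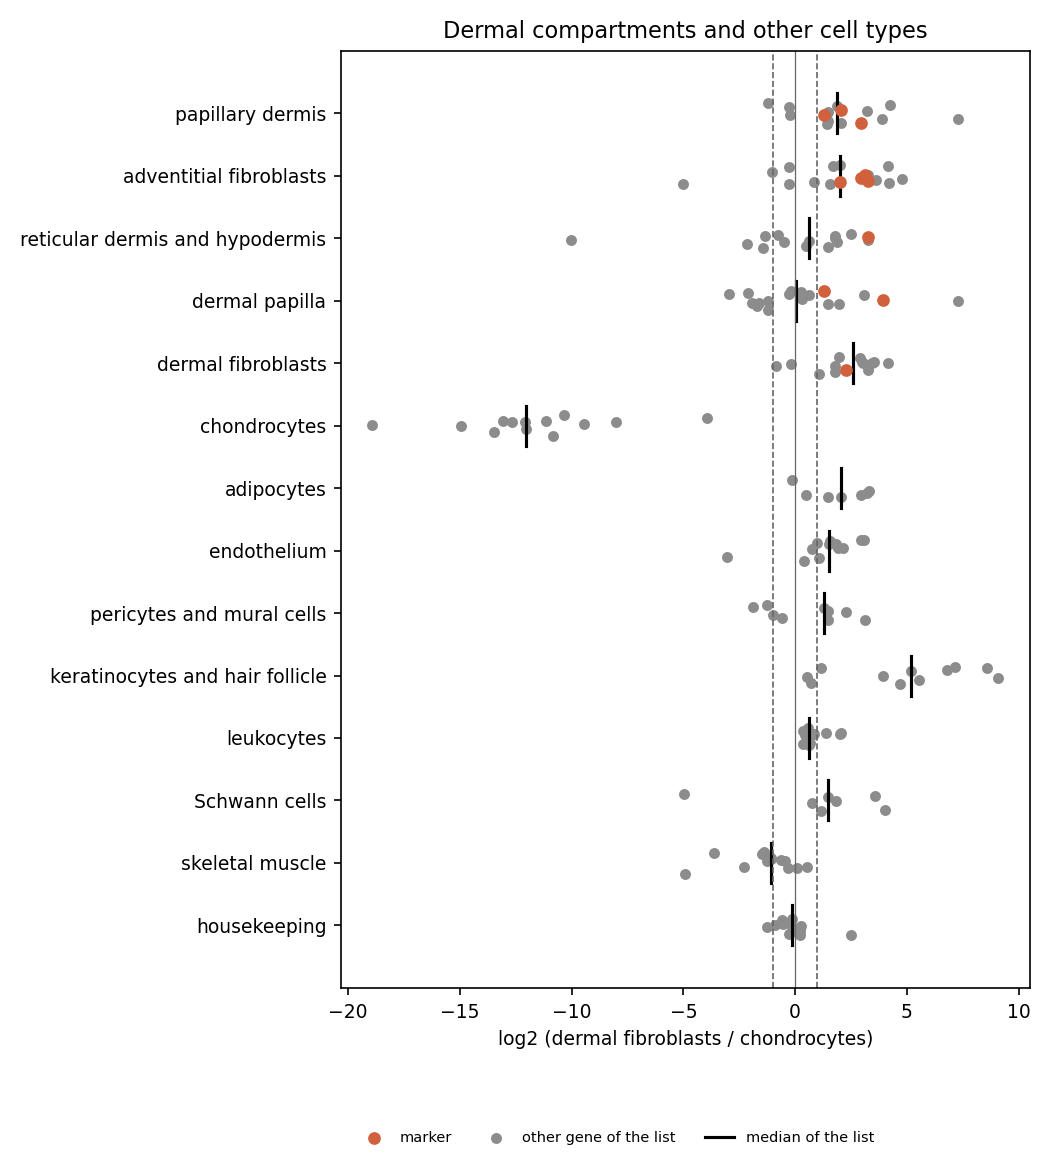
Log2 fold (dermal fibroblasts over chondrocytes) of the tested genes of the dermal compartment lists and of lists for other cell types, with the 10 genes in orange, other genes in gray, the median of each list as a black bar and dashed lines at 2-fold. Genes at 0 counts in a library are plotted at the value that a floor of 3 counts gives, and the medians of the papillary, adventitial, dermal fibroblast, adipocyte, endothelial, pericyte, keratinocyte and Schwann cell lists lie right of the 2-fold line while that of the chondrocyte list lies far to the left.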

How the data were processed

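Stranded mRNA libraries of 1 chondrocyte and 1 dermal fibroblast sample were read as 75 bp single-end reads, which the authors mapped to mm10 with TopHat2 2.0.13, Bowtie2 2.2.3 and SAMtools 0.1.19 after base calling with CASAVA 1.8.2 (versions and build from the submitters' processing notes). The deposited table holds raw read counts in rows named by gene symbol, which the authors did not normalize. Of the symbols, 2 stood in more than 1 row. The counting program, its annotation and its strand setting are not given in the sources used here.

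Counts were scaled by trimmed mean of M-values factors over the whole table (edgeR 4.0.16, R 4.3.3), and no count model was fitted. For folds, a floor of 3 counts replaced lower values. Genes with at least 10 counts in either library were tested, that is, compared with a threshold of 2-fold. A gene with 3 counts or fewer in 1 library and at least 10 in the other had to pass 2-fold with this floor. Such genes occur in several lists and among all genes tested. Fold and CPM intervals are 95% Clopper-Pearson intervals, and intervals of a ratio of 2 folds are normal intervals on the log scale of the 4 counts. These ratios were chosen after the values were seen. Computations ran in Python 3.11.15 (scipy 1.17.1, numpy 2.4.6) and were tested on simulated data.

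Alternatives were total counts, DESeq2 1.42.0 size factors, the upper quartile, totals that omit the 10 top genes of each library, *Actb*, a floor of 1 or of 10, adding a pseudocount of 1, a fold over 4, the interval wholly beyond 2-fold and no filter on counts. Named were the 10 genes, all genes of the family lists, and of each other list the 4 most abundant and the largest fold in each direction among genes with at least 100 counts. 1 gene of the lists is not reported here and was left out of their counts. The genes and lists were chosen with earlier results of these data known. Positions and promoters are those of RefSeq GRCm38.p6 (mm10). Exon lengths came from GENCODE vM1 of NCBIM37 and covered 92.2% of the genes tested, and none of its coordinates are printed.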

Additional observations from a re-analysis of the deposited data

How the results depend on the processing

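No paired analysis was possible because either cell type has a single library. The count of the 10 genes over 2-fold higher in fibroblasts stayed at 10, and that in chondrocytes at 0, under each of the other scalings and the pseudocount. The scalings shifted log2 folds by at most 0.14, and the lowest of the 10, that of *Lef1*, was 1.29. The floors could not change any of these folds, as the lowest count among the 10 genes was 14. A fold over 4 kept 8 of the 10, since *Lef1* lies under it and *Cd34* lies just under it, and the interval wholly over 2-fold kept 9. The median log2 fold of the 10 genes ran from 2.52 (*Actb*) to 2.78 (total counts). *Lef1* ran from 2.24-fold to 2.68-fold and *Thy1* from 18.4-fold to 22.0-fold. Of 80 values of the 10 genes under alternatives, 8 lay outside the counting interval of the reported value. The 80 include those under the floors, which equal the reported values by construction. Scaling by total counts shifted every log2 fold by 0.14, and scaling by *Actb* shifted it by -0.12. A fold over 4 lowered the genes over the threshold from 2319 to 929 in dermal fibroblasts and from 1684 to 713 in chondrocytes, and the interval wholly beyond 2-fold lowered the latter to 1031, as stricter thresholds must. Of 121 named genes tested, no fold over 2 changed direction, and 8 crossed 2-fold under 1 or more of the 5 other scalings. With total counts these were *Pdgfb* (log2 fold 1.003), *Lynx1* (1.13) and *Ptpn2* (-0.94), with the upper quartile *Egfl7* (0.97) and *Notch3* (-1.02), and with *Actb* also *Lrp1* (0.94), *Myc* (-1.006) and *Fbn1* (0.93). The floors and the pseudocount moved 2 across it, *Ly6h* (0.81 with a floor of 10) and *Egfl7* (0.99 with the pseudocount). Of 500 counts of list genes under alternatives, 31 moved over 1.5 times. Few reads limit *Dpp4*, *Pi16* and *Alx4*, which had 15, 14 and 23 counts in chondrocytes.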

Other observations

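Of 13 housekeeping genes, 11 were within 2-fold between the libraries, with *Actb* at 1.09-fold (45139 counts in the chondrocyte and 50469 in the fibroblast library) and *Ppia* at 1.17-fold. *B2m*, the light chain of class I major histocompatibility molecules, was 5.73-fold higher in dermal fibroblasts (5.49 to 5.98, 2516 and 14800 counts), a fold larger than that of *Pdgfrb*. *Pgk1*, a glycolytic enzyme, was at 0.421-fold (17538 and 7580 counts).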
